A study of Mus musculus with 4 samples.

Results

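Expression of 8 lectin genes of macrophages was followed in single cells of mouse brown adipose tissue (BAT): Cd209b, Cd209d, Cd209f, Cd209g, Fcna, Mrc1, Clec10a and Mgl2, which are 8 of the 32285 genes in the files. They were listed by symbol, and the choice was made because Cd209f, Cd209g and Fcna were already known to be lower in every library of obese mice. The levels given here describe that choice and are no independent support for it. The study compared the stromal vascular fraction of BAT, the cells left once adipocytes are removed, between lean and obese mice. There were 4 libraries of 1 group each. The WT library came from 10-week C57BL6/J mice, and db/db mice gave a library at an age of 8 weeks and another at 16 weeks (8w and 16w in the plots). The remaining library came from mice on a high-fat diet (HFD). The db/db mouse lacks a working leptin receptor in all its cells and overeats. The HFD mice are labelled 10 weeks old, whereas the methods describe a diet begun at 10 weeks of age and kept for 10 weeks, and the labels put all groups in the C57BL6/J strain. Each library pooled the cells of 3 mice by the methods, so the spread between mice is unknown. With 1 library per group no test between groups was possible. The intervals given are 95% intervals that cover counting error only, and the 3 obese libraries were all compared with the same WT library.

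Lectins are proteins that bind sugars. The Cd209 genes are the mouse relatives of human DC-SIGN, transmembrane C-type lectins that bind mannose- and fucose-bearing glycans on microbes and on host glycoproteins. Cd209b encodes SIGN-R1, best known from macrophages of the splenic marginal zone. Fcna encodes ficolin A, a secreted lectin that starts the lectin pathway of complement. Mrc1 encodes the mannose receptor CD206, an endocytic receptor often used as a mark of tissue-resident and alternatively activated macrophages. Clec10a (MGL1) and Mgl2 (MGL2, CD301b) encode lectins that bind galactose and N-acetylgalactosamine. Perivascular macrophages lie along vessels and are marked by Lyve1, Folr2 and Cd163, whereas lipid-associated macrophages are marked by Trem2, Gpnmb, Spp1 and Cd9.

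Cells were kept under the limits of the methods, which left 5944 cells in WT, 11648 in 8-week db/db, 5833 in 16-week db/db and 5462 in HFD, with median depths of 2733 to 6218.5 UMIs (unique molecular identifiers, 1 per captured RNA molecule). Some libraries stood apart. The mitochondrial limit of 15% was met or exceeded by 68.5% of the HFD barcodes, against 1.04% to 35.6% in the other libraries. Such barcodes were left out. The 16-week db/db library carried the X-inactivation transcript Xist at 207 CPM (UMIs of a gene, scaled to 1e6 UMIs in all) and 4 Y-linked genes at 17.7 CPM summed, against at most 0.688 CPM and at least 164 CPM elsewhere, although the methods describe male mice. Pairs of libraries shared 16 to 97 barcodes. Counts that rest on all 3 obese libraries are therefore also given without each of these 2 libraries.

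The 4 Cd209 genes lie in 1 cluster on chromosome 8 of GRCm38 (GENCODE vM21). Cd209d (3871824 to 3878555, minus strand) and Cd209b (3917655 to 3926844, minus strand) are 39099 bases apart, and Cd209f (4102787 to 4105835, minus strand) and Cd209g (4134098 to 4137707, plus strand) are 28262 bases apart. Mgl2 (70130329 to 70137550) and Clec10a (70156197 to 70170834) are neighbours on the plus strand of chromosome 11. Fcna (25624666 to 25628030, minus strand) and Mrc1 (14229392 to 14332057, plus strand) lie on chromosome 2. RefSeq promoter windows of 300 bases, from 250 before the start to 50 after it, were found for 7 of the 8 genes, Clec10a being the exception. The windows of Cd209f and Cd209g shared an unbroken run of 180 identical bases, whereas no other pair among the 7 shared more than 12. Among 27025 genes with a window, 5.42% shared a run of at least 100 bases with another gene, each window read in its gene's direction. The stretches below are shown because Cd209f and Cd209g had nearly the same ratios to WT. They run 5′ to 3′, stop before the first exon of the protein-coding transcripts, and carry in capitals the part of the shared run that falls in them. They lie at chr8:4105836-4106014 on the minus strand and chr8:4134486-4134651 on the plus strand (RefSeq, GRCm38.p6). A retained-intron transcript without a coding sequence covers the latter.
Cd209f: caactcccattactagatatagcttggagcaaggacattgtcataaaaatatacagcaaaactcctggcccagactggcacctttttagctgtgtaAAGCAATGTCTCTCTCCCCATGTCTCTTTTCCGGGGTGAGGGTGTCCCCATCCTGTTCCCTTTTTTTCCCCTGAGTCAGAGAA
Cd209g: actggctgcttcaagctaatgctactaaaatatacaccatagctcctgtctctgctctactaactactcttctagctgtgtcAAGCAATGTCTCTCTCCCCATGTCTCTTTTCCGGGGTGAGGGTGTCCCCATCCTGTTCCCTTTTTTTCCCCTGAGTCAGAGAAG

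Motifs were searched on both strands of the 7 windows, and were chosen after the sequences had been seen. TGAGTCA, the site of AP-1 factors, was found in Cd209f and Cd209g only, at 83 and 97 bases before their RefSeq starts, against 5.17% of all windows. TATAAA, the core of the TATA box, was also found in those 2 windows only, against 14.2% of all windows. It lies 29 and 43 bases before the RefSeq starts, past the stretches above, which stop 71 and 84 bases before those starts. Both motifs fall in the shared run, so the 2 genes are not independent cases. GAGGAA, the core that PU.1 binds, was found in 4 of 7 windows (Cd209d, Fcna, Mrc1 and Mgl2), against 28.3% of all windows. TGCTGA, part of the recognition element of MAF factors, was found in Cd209d and Fcna, against 19.1%. The Fcna window is shown because it held both of the latter motifs more than once. It lies at chr2:25628031-25628224 on the minus strand, with GAGGAA and TGCTGA in capitals. The motifs do not overlap one another, although a pair of GAGGAA copies adjoin.
Fcna: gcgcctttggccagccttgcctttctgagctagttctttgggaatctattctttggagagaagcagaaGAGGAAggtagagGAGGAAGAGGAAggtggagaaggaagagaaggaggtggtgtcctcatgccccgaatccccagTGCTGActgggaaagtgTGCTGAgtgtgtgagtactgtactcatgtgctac

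Genes that share sequence can take each other's reads. The longest coding transcripts of Cd209f and Cd209g shared a run of 416 bases, but within their last 500 bases, where 3′ libraries are read, the longest shared run was 29. Clec10a and Mgl2 shared a run of 183 bases in all and 10 in the last 500. How reads that match both members of a pair were split is not known from the files, so the division between Cd209f and Cd209g is uncertain to that extent.

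Macrophages were gated as cells with at least 3 UMIs of a panel of 7 markers summed, among them Csf1r, Adgre1, Fcgr1, C1qa, C1qb and C1qc, and at least 2 times as many as of any other marker panel. The gate held 1214 cells in WT, 2796 in 8-week db/db, 2318 in 16-week db/db and 1517 in HFD, with median depths of 5063 to 5890 UMIs. All 7 marker genes were detected in each library, at a summed level of 13294 CPM in WT, 8799 in 8-week db/db, 4845 in 16-week db/db and 7649 in HFD. The share of a gene's UMIs that the gate held varied. For Cd209f its share of the UMIs of all kept cells was 91.5% in WT, 87.1% in 8-week db/db, 100% in 16-week db/db and 78.9% in HFD. In HFD it was 33.3% (28 of 84 UMIs) for Cd209d and 56.1% for Mgl2. For the other genes and libraries it was 70.4% to 100%. Levels below are CPM within the gated cells, so each is relative to all RNA counted in those cells.

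Cd209f and Cd209g, the neighbouring pair, were high in WT and low in the 3 obese libraries. Cd209f stood at 640.6 CPM (5037 UMIs) in WT, 120.8 (2165 UMIs) in 8-week db/db, 7.55 (129 UMIs) in 16-week db/db and 9.42 (105 UMIs) in HFD. The intervals of the last 2 overlapped (6.30 to 8.97 and 7.70 to 11.4 CPM), and all others were apart. The log2 ratio to WT was −2.41 (95% interval −2.48 to −2.33), −6.41 (−6.67 to −6.15) and −6.09 (−6.38 to −5.81) in turn. Cd209g stood at 210.7 CPM (1657 UMIs) in WT, 37.1 (664 UMIs) in 8-week db/db, 2.58 (44 UMIs) in 16-week db/db and 2.60 (29 UMIs) in HFD. Its log2 ratios were −2.51 (−2.64 to −2.38), −6.35 (−6.82 to −5.92) and −6.34 (−6.92 to −5.81), with intervals that overlapped those of Cd209f in each library. With no mitochondrial limit on cells, the HFD ratios were −5.20 for Cd209f and −5.33 for Cd209g.

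Cd209b and Cd209d, the other pair of the cluster, were less reduced in the younger db/db mice. Cd209b stood at 218.6 CPM (1719 UMIs) in WT, 91.6 (1641 UMIs) in 8-week db/db, 11.2 (192 UMIs) in 16-week db/db and 1.70 (19 UMIs) in HFD. Cd209d stood at 308.5 CPM (2426 UMIs) in WT, 192.8 (3454 UMIs) in 8-week db/db, 13.7 (234 UMIs) in 16-week db/db and 2.51 (28 UMIs) in HFD. Both were ordered WT, 8-week db/db, 16-week db/db, HFD, with no overlap of intervals. In 8-week db/db the log2 ratio was −1.26 (−1.35 to −1.16) for Cd209b and −0.68 (−0.75 to −0.60) for Cd209d, so that only the former was below −1. In HFD both ratios, −7.00 (−7.74 to −6.36) and −6.94 (−7.53 to −6.41), rest on 19 and 28 UMIs, and their intervals overlapped those of Cd209g and Fcna. With no mitochondrial limit they were −5.83 and −5.36, so that Fcna (−6.11) was then the lowest of the 8 genes.

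Fcna, the soluble ficolin, followed the same order. It stood at 1190.2 CPM (9359 UMIs) in WT, 372.6 (6676 UMIs) in 8-week db/db, 60.7 (1037 UMIs) in 16-week db/db and 15.4 (172 UMIs) in HFD. The log2 ratios were −1.68 (−1.72 to −1.63), −4.29 (−4.39 to −4.20) and −6.27 (−6.50 to −6.05).

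The mannose receptor and the galactose-type lectins stood apart from the Cd209 genes and from each other. Mrc1 was at 1014.6 CPM in WT, 856.9 in 8-week db/db, 288.9 in 16-week db/db and 591.1 in HFD, with log2 ratios of −0.24 (−0.28 to −0.20), −1.81 (−1.86 to −1.76) and −0.78 (−0.83 to −0.73). Among the obese libraries Mrc1 was thus lowest in 16-week db/db. Clec10a was lowest in HFD, at 1478 CPM in WT, 895.4 in 8-week db/db, 553.9 in 16-week db/db and 144.6 in HFD, with log2 ratios of −0.72 (−0.76 to −0.69), −1.42 (−1.46 to −1.38) and −3.35 (−3.43 to −3.28). Mgl2, its neighbour on chromosome 11, was at 62.4 CPM (491 UMIs) in WT, 50.8 (910 UMIs) in 8-week db/db, 6.79 (116 UMIs) in 16-week db/db and 71.5 (797 UMIs) in HFD. Its log2 ratio was −0.30 (−0.46 to −0.14), −3.20 (−3.51 to −2.91) and 0.20 (0.03 to 0.36), and the intervals of the WT and HFD levels overlapped. The HFD ratio was 0.93 with no mitochondrial limit and −0.65 in the few cells free of other panels' UMIs, and the 8-week db/db ratio was 0.27 after thinning to 1000 UMIs. Clec10a and Mgl2 therefore parted in HFD, where Clec10a was at its lowest.

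**Figure D1:**
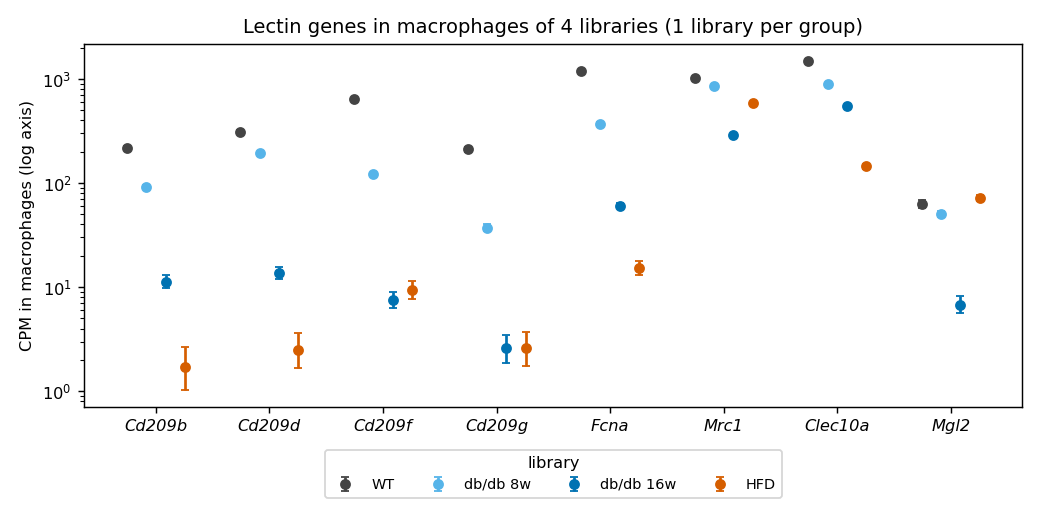
Level of each lectin gene in macrophages, in CPM on a log axis, with 1 point per library (WT, 8-week db/db, 16-week db/db, HFD) and 95% Poisson intervals that cover counting error only. Cd209f goes from 640.6 CPM in WT to 7.55 in 16-week db/db and 9.42 in HFD, whereas Mgl2 stands at 62.4 CPM in WT and 71.5 in HFD.

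Counted over the list, the members with a log2 ratio to WT of −1 or less in macrophages were 4 of 8 in 8-week db/db (Cd209b, Cd209f, Cd209g and Fcna), 8 of 8 in 16-week db/db and 6 of 8 in HFD (all but Mrc1 and Mgl2). Among the 9149 genes with a mean of at least 5 CPM, all 8 members included, 5.03% were at −1 or less in 8-week db/db, 24.2% in 16-week db/db and 10.0% in HFD. The median log2 ratio was −0.99, −4.29 and −6.18 over the members, and 0.03, −0.12 and 0.18 over all these genes. In all 3 obese libraries, 4 of 8 members were at −1 or less, against 3.41% of the genes. The count was 4 both without the 16-week db/db library and without the HFD library, and 6 without 8-week db/db. The genes were chosen on this contrast, so nothing is read from these counts. Just inside the limit were Cd209b in 8-week db/db (−1.26) and Clec10a in 16-week db/db (−1.42), and just outside it Mrc1 in HFD (−0.78) and Clec10a in 8-week db/db (−0.72). Over all kept cells rather than macrophages, 2 members were at −1 or less in 8-week db/db, and Cd209d was higher there than in WT (log2 ratio 0.37).

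Other RNA in the macrophages also differed between the libraries, not all in the same direction. The dissociation and stress genes Fos, Jun, Hspa1a, Hspa1b and Dnajb1, all 5 detected in each library, summed to 17395 CPM in WT, 6835 in 8-week db/db, 2386 in 16-week db/db and 1899 in HFD. The 6 stromal markers, all detected, summed to 857, 475, 24.1 and 344 CPM. The 8 T and NK cell markers summed to 9.16, 92.9, 65.5 and 334 CPM, with 1 of them at 0 in WT and in 16-week db/db. The 6 endothelial markers summed to 5.09, 21.2, 36.3 and 189 CPM, with 1 at 0 in WT. Mitochondrial RNA, a sign of RNA quality, summed to 59459, 45859, 8334 and 90777 CPM over 13 genes. The part of these in the differences was not tested.

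Macrophages were next split by at least 2 UMIs of Lyve1, Folr2 and Cd163 and by at least 2 UMIs of Trem2, Gpnmb, Spp1 and Cd9. Cells with the first set only made up 69.9% (848 of 1214) of WT macrophages, 45.0% (1259 of 2796) in 8-week db/db, 8.15% (189 of 2318) in 16-week db/db and 3.96% (60 of 1517) in HFD. Cells with the second set only made up 1.98%, 19.3%, 45.7% and 48.0%, and cells with both 15.7%, 21.5%, 34.3% and 34.8%. The share with neither set was 11.9% to 14.2%. A gate on raw UMIs depends on depth, and cells of the first set only had a median of 2673 to 4878 UMIs against 8091.5 to 9486 in cells with both sets.

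**Figure D2:**
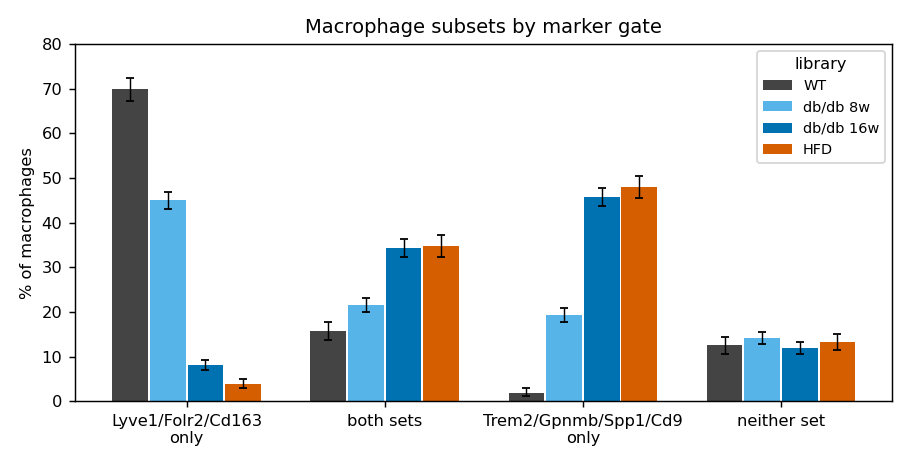
Share of macrophages in each of 4 marker gates, in percent, by library, with bars starting at 0 and exact binomial 95% intervals. The share with Lyve1, Folr2 and Cd163 only is 69.9% in WT and 3.96% in HFD, and the share with Trem2, Gpnmb, Spp1 and Cd9 only is 1.98% in WT and 48.0% in HFD.

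The 8 genes divided by how they sat in these gates. In WT, the Cd209 genes and Fcna were found almost wholly in cells with Lyve1, Folr2 or Cd163. Cd209f there was at 655 CPM in cells with the first set only, at 906 in cells with both sets, at 6.98 (2 UMIs in 24 cells) with the second set only and at 50.4 with neither. Of its 5037 UMIs in WT macrophages, 64.0% lay in the first gate and 35.2% in cells with both sets. Those gates held 62.6% and 24.9% of all UMIs of WT macrophages. In cells with the second set only, Cd209f had 7 UMIs in 540 cells of 8-week db/db, 0 in 1059 cells of 16-week db/db and 6 in 728 cells of HFD. Cd209b, Cd209d and Cd209g were at or under 3.49 CPM in that gate in every library. In WT, Cd209b rested on 1 UMI in 24 cells (interval to 19.4 CPM), and Cd209d and Cd209g had 0 UMIs (upper limit 12.9 CPM). Fcna was there at 27.9 CPM in WT, 14.5 in 8-week db/db, 21.7 in 16-week db/db and 4.60 in HFD.

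Mrc1 and Clec10a were found in all 4 gates, although most of their UMIs in WT macrophages also lay in cells with Lyve1, Folr2 or Cd163. The first gate held 66.1% for Mrc1 and 67.9% for Clec10a, and cells with both sets 28.2% and 27.0%. In cells with Trem2, Gpnmb, Spp1 or Cd9 only, Clec10a was at 611 CPM in WT (24 cells), 614 in 8-week db/db and 517 in 16-week db/db, and at 125 in HFD. The interval of the WT value overlapped those of both db/db libraries. Mrc1 was there at 314 CPM in WT, 289 in 8-week db/db, 155 in 16-week db/db and 503 in HFD. Its intervals in WT and 8-week db/db overlapped. In cells with both sets, Mrc1 was at 1146 CPM in WT, 718 in 8-week db/db, 297 in 16-week db/db and 580 in HFD. Mgl2 was scarce wherever the second set was found, at 1.35 to 21.9 CPM in WT and the db/db libraries, but stood at 31.9 CPM (both sets) and 63.2 CPM (second set only) in HFD. It was highest in HFD cells with the first set only (349 CPM) and with neither set (281 CPM).

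**Figure D3:**
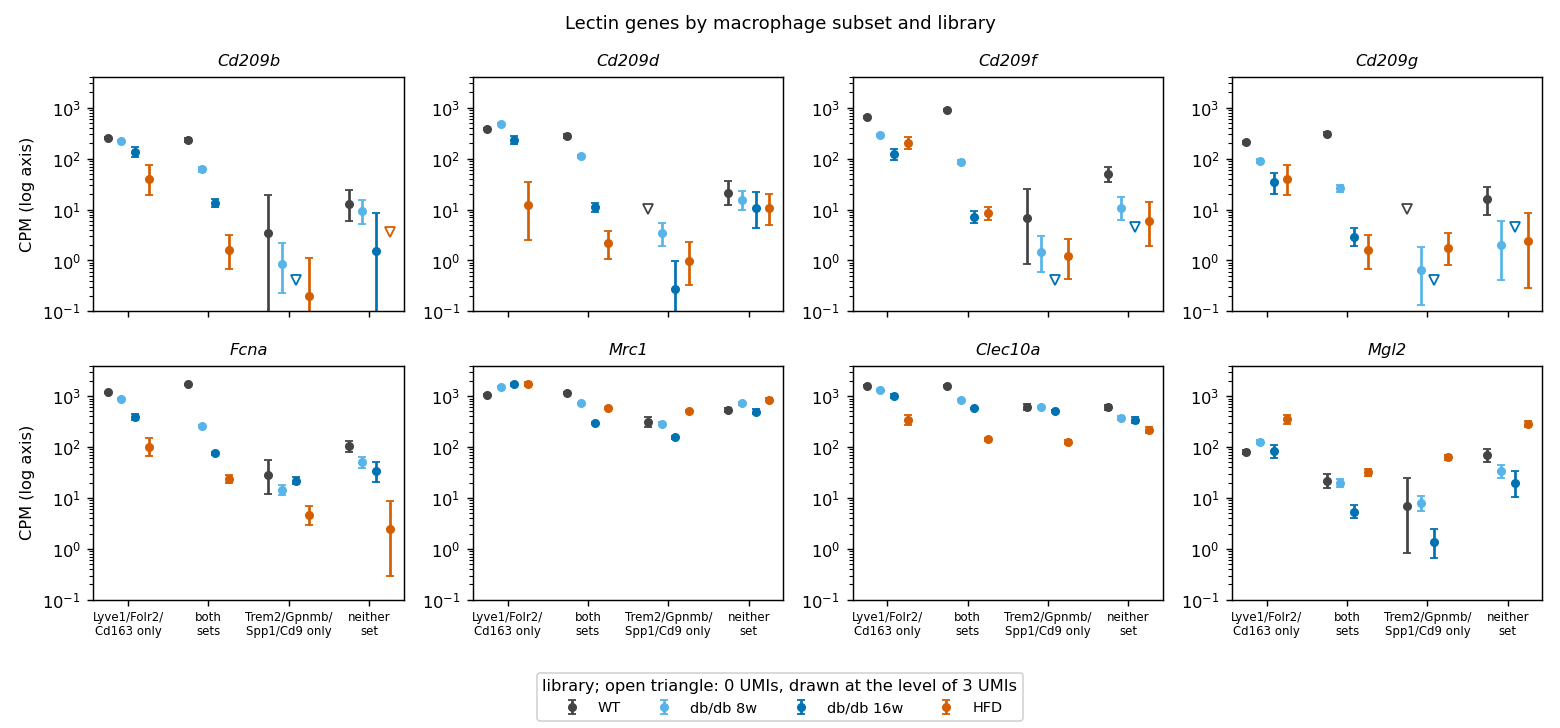
Level of each lectin gene in 4 macrophage gates, in CPM on a log axis, 1 panel per gene and 1 point per library with 95% Poisson intervals (cut at the lower edge); open triangles mark 0 UMIs and stand at the level of 3 UMIs. The Cd209 genes and Fcna drop by more than an order of magnitude from the left gate to the gate of Trem2, Gpnmb, Spp1 and Cd9 only in WT, whereas Clec10a goes from 1603 to 611 CPM.

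The first gate holds cells with Lyve1, Folr2 or Cd163 and without the second set. Within it, differences from WT were smaller than in all macrophages for the Cd209 genes, Fcna and Clec10a. Cd209f was at 655 CPM (3225 UMIs) in WT, 288 (1606 UMIs) in 8-week db/db, 122 (68 UMIs) in 16-week db/db and 207 (51 UMIs in 60 cells) in HFD, which gave log2 ratios of −1.19 (−1.27 to −1.10), −2.43 (−2.79 to −2.08) and −1.66 (−2.09 to −1.27). Cd209g had log2 ratios of −1.24 (−1.40 to −1.09), −2.62 (−3.36 to −1.97) and −2.37 (−3.44 to −1.49). Both genes were below −1 in each library. With 4 rather than 2 UMIs of Lyve1, Folr2 and Cd163 as the limit, the HFD ratio of Cd209f was −0.55 and that of Cd209g −1.35. The other pair of the cluster did not in the db/db libraries. Cd209d was at 377 CPM in WT, 489 in 8-week db/db, 235 in 16-week db/db and 12.2 (3 UMIs) in HFD, with log2 ratios of 0.37 (0.29 to 0.46), −0.68 (−0.95 to −0.43) and −4.95 (−7.23 to −3.41). Cd209b was at 253, 223, 138 and 40.5 CPM, with log2 ratios of −0.18 (−0.30 to −0.07), −0.87 (−1.22 to −0.54) and −2.64 (−3.71 to −1.76). Cells with both sets also carry Lyve1, Folr2 or Cd163, but differences there were larger than in all macrophages for most of these genes. Log2 ratios there were −3.38, −6.98 and −6.74 for Cd209f and −3.56, −6.73 and −7.63 (8 UMIs in HFD) for Cd209g. The exceptions were Cd209b in 16-week db/db (−4.14) and Fcna in HFD (−6.15).

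Fcna within the gate was at 1203 CPM in WT, 886 in 8-week db/db, 389 in 16-week db/db and 101 in HFD, with log2 ratios of −0.44 (−0.50 to −0.39), −1.63 (−1.83 to −1.43) and −3.57 (−4.20 to −3.01). Clec10a was at 1603, 1326, 1004 and 344 CPM, and only its HFD ratio, −2.22 (−2.54 to −1.91), was below −1. Mrc1 was higher than WT here. It was at 1070.3 CPM in WT, 1522 in 8-week db/db, 1704 in 16-week db/db and 1726 in HFD, higher than WT by 0.51 (0.46 to 0.56), 0.67 (0.57 to 0.77) and 0.69 (0.54 to 0.83) on the log2 scale. Mgl2 was at 80.8, 126, 84.3 and 349 CPM, with log2 ratios of 0.64 (0.46 to 0.82), 0.06 (−0.41 to 0.50) and 2.11 (1.75 to 2.45).

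Members with a log2 ratio of −1 or less within the gate were 2 of 8 in 8-week db/db (Cd209f and Cd209g), 3 of 8 in 16-week db/db (with Fcna) and 6 of 8 in HFD. Among the 5534 genes with a mean of at least 20 CPM there, 1.32%, 11.0% and 9.81% were at −1 or less. In all 3 libraries, 2 of 8 members were, Cd209f and Cd209g, against 0.741% of the genes, and the same 2 without the 16-week db/db library or without HFD. With the limit of 4 UMIs, Cd209f was no longer at −1 or less in HFD, and of the 2 only Cd209g was in all 3 libraries. These cells are a part of those the choice used. The gate did not hold the same cells in each library: Lyve1 itself was at 1015 CPM in WT, 1385 in 8-week db/db, 1437 in 16-week db/db and 105 in HFD. Among macrophages with a Lyve1 UMI, a group chosen after the values were seen (899, 1448, 297 and 35 cells), Cd209f was at 809, 268, 87.5 and 323 CPM and Cd209d at 384, 422, 148 and 50.7 CPM. The stress genes within the gate summed to 19593, 14322, 6604 and 3789 CPM, and their part was not tested.

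When each gate's level was weighted by the gate's share of UMIs in WT, the log2 ratios of all 8 genes moved upwards in each library. For Cd209f they became −1.66 in 8-week db/db, −3.03 in 16-week db/db and −2.28 in HFD, from −2.41, −6.41 and −6.09. For Cd209d they became 0.12, −1.03 and −5.08. For Mrc1 they became 0.25, 0.23 and 0.38, and for Mgl2 0.48, −0.16 and 2.02. Clec10a moved least, to −0.43, −0.85 and −2.43 from −0.72, −1.42 and −3.35.

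**Figure D4:**
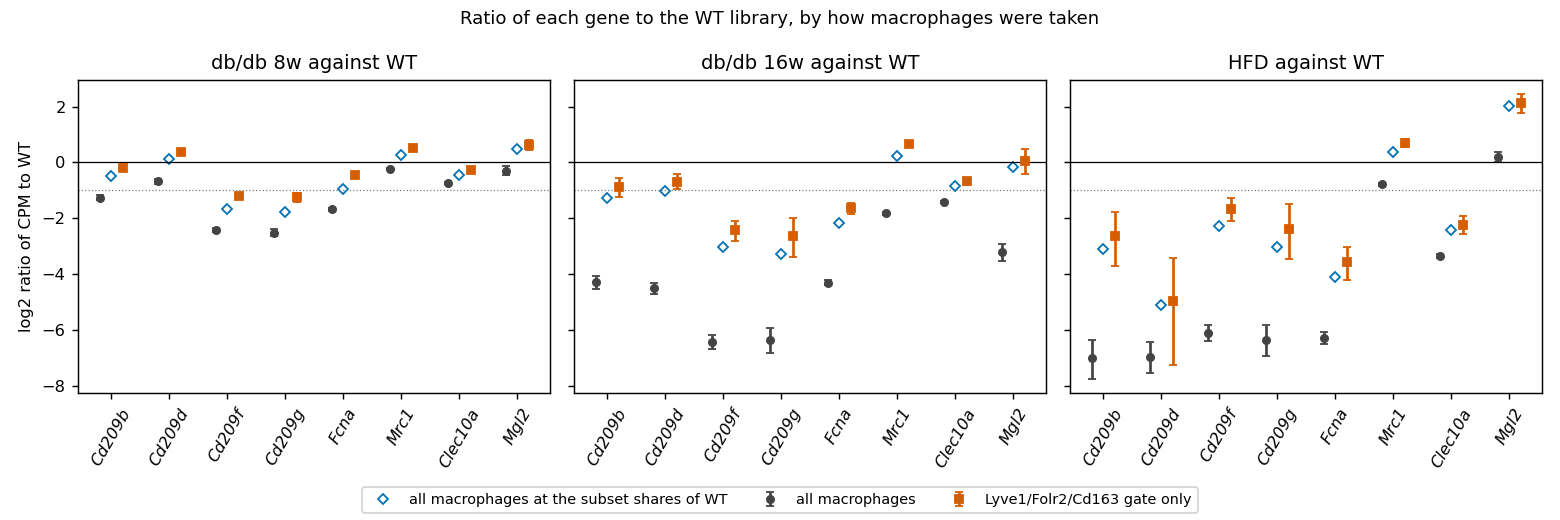
Log2 ratio of each gene to WT in each obese library, for all macrophages (circles), for all macrophages at the gate shares of WT (open diamonds, no interval) and for cells with Lyve1, Folr2 and Cd163 only (squares), with 95% counting intervals; the dotted line marks −1. Cd209f and Cd209g lie below the dotted line in every panel by all 3 readings, whereas Mrc1 lies above 0 by the squares and diamonds and below 0 by the circles.

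Macrophages were also split by at least 5 UMIs of the MHC class II genes H2-Aa, H2-Ab1 and H2-Eb1, which present antigen to T cells. Cells over that limit made up 62.9% of macrophages in WT, 54.4% in 8-week db/db, 20.1% in 16-week db/db and 93.5% in HFD. The Cd209 genes and Fcna were higher in cells under the limit in each library, although for Cd209d in HFD the intervals overlapped. Cd209f was at 996 CPM under and 504 over the limit in WT, and at 265 and 43.8 in 8-week db/db. In 16-week db/db it was at 9.14 and 0 CPM (0 UMIs in 465 cells, upper limit 1.24 CPM). In HFD it was at 48.2 and 6.30 CPM. Mgl2 was the reverse in WT (31.5 under and 74.4 over), 8-week db/db (38.4 and 57.4) and HFD (38.6 and 74.1), and its intervals overlapped in 16-week db/db (6.23 and 9.43). Mrc1 differed little between these cells in WT (1041 and 1004 CPM).

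Shares of macrophages with a UMI were compared after every cell had been thinned to 1000 UMIs, with shallower cells left out (18, 153, 84 and 0 macrophages). A Cd209f UMI was then found in 33.5% of macrophages in WT, 10.8% in 8-week db/db, 0.985% in 16-week db/db and 0.989% in HFD, against 55.2%, 20.3%, 1.73% and 2.04% unthinned. In stromal cells, which should lack it, the thinned share was 0.822%, 0.670%, 0% (0 of 1104 cells, with an exact upper bound of 0.334%) and 0.114%. Cd209b in HFD macrophages was found in 0.198% of cells, with an interval (0.0408% to 0.577%) that overlapped that of the stromal cells (0% to 0.209%), so its presence there was not detectable at this depth. For Cd209g in HFD macrophages the share was 0.264% (0.0719% to 0.674%), against 0% (to 0.209%) in stromal cells, which overlap likewise. The same held for Cd209d in HFD (0.107% to 0.767%) and for Cd209g in 16-week db/db (0.0986% to 0.584%, against 0% to 0.334% in stromal cells). Clec10a was found in 69.2%, 50.9%, 32.5% and 13.3% of macrophages, against 3.05%, 6.51%, 1.27% and 1.31% of stromal cells. Mrc1 was found in 52.3%, 53.0%, 24.8% and 45.7% of macrophages.

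**Figure D5:**
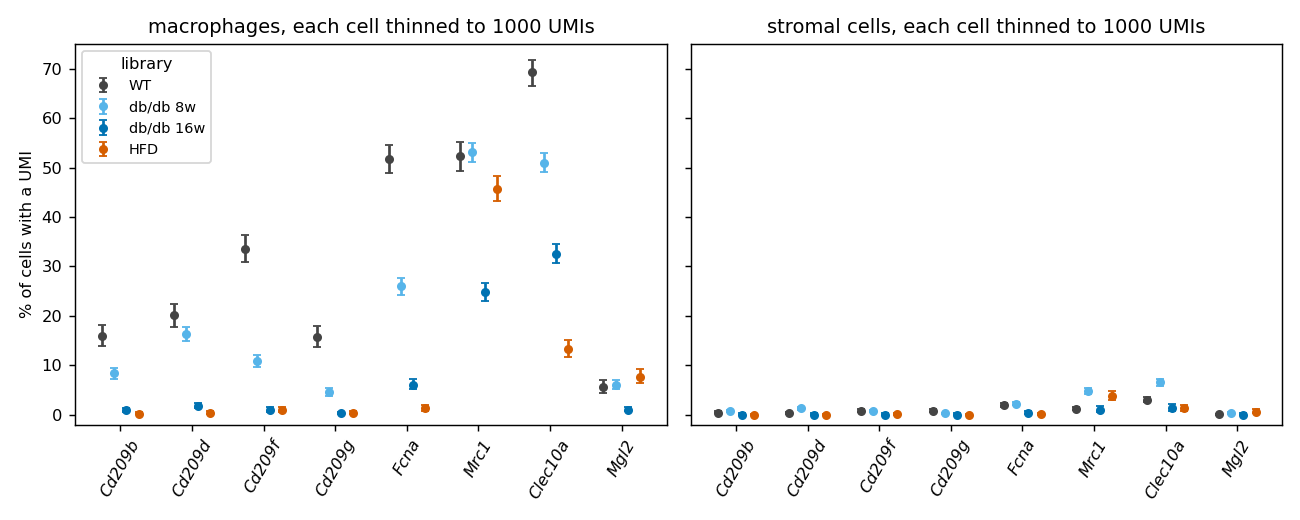
Share of macrophages (left) and of stromal cells (right) with a UMI of each lectin gene, in percent, after each cell was thinned to 1000 UMIs, by library with exact binomial 95% intervals. Clec10a is found in 69.2% of WT and 13.3% of HFD macrophages and in at most 6.51% of stromal cells.

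Taking Cd209b, Cd209d, Cd209f, Cd209g and Fcna together in the thinned macrophages, at least 2 of these 5 genes were found in 41.6% of cells in WT (497 of 1196), 18.6% in 8-week db/db (491 of 2643), 1.70% in 16-week db/db (38 of 2234) and 0.527% in HFD (8 of 1517). None was found in 33.7%, 64.2%, 92.4% and 97.7%. Within the first gate, where reads of Cd209f and Cd209g may also be shared, Cd209g was found more often in cells with a Cd209f UMI. In WT, Cd209g was found in 64.1% of the 527 cells with a Cd209f UMI and in 13.1% of the 321 cells without one, at median depths of 5048 and 4662 UMIs. In 8-week db/db the shares were 48.3% of 445 and 7.37% of 814 cells, at 4380 and 3765 UMIs. In WT the same held for Cd209b (46.1% with a Cd209f UMI and 16.8% without one), Cd209d (65.3% and 20.9%) and Fcna (91.1% and 65.7%). Clec10a was at 98.3% and 93.1%, Mrc1 at 89.9% and 87.5%, and Mgl2 went the other way, at 21.3% and 28.7%.

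The relatives of these genes were read from lists of other lectins and partners. Of the Cd209 family outside the 8, Cd209a, a marker of dendritic cells, was at 42.7 CPM in WT, 33.5 in 8-week db/db, 1.29 in 16-week db/db and 2.33 in HFD. Cd209a is in the dendritic panel, so the macrophage gate itself limits its level in these cells. Cd209c and Cd209e were under the limit of 5 CPM. Of 22 transmembrane C-type lectins found in the files, 14 passed the limit. In 8-week db/db, 16-week db/db and HFD, 1, 5 and 6 of them were at a log2 ratio of −1 or less and 1, 3 and 4 at 1 or more, with medians of 0.08, −0.30 and −0.45 on the log2 scale. Over all 9149 genes, 5.03%, 24.2% and 10.0% were at −1 or less and 6.62%, 19.4% and 14.6% at 1 or more, which also serves the lists that follow. Clec4e (Mincle), a receptor for mycobacterial glycolipids, was at 120 CPM in WT, 215 in 8-week db/db, 24.6 in 16-week db/db and 19.4 in HFD. Clec12a, an inhibitory receptor, was at 63.7 CPM in WT and at 101, 157 and 332 in the obese libraries. Clec4a2 stood at 122 CPM in WT and at 220, 277 and 276 in the obese libraries. Colec12, a scavenger receptor with a collagen stem, was at 115, 90.5, 58.1 and 9.33 CPM.

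Of the sialic acid lectins, 3 of 7 passed the limit. Siglec1, the sialoadhesin of resident macrophages, was at 46.8 CPM in WT and 17.2, 11.5 and 16.4 in the obese libraries, and Cd33 was at 78.0, 45.0, 17.5 and 9.78 CPM. Cd22, an inhibitory receptor best known from B cells, was higher than in WT, at 1.27 CPM (10 UMIs) against 3.52, 3.57 and 15.6 in the obese libraries. Of Fcnb, the mannose-binding lectins, the collectins, the MASP proteases and the complement components C2, C3 and C4b, 3 of 10 passed. All 3 were the complement components: C3, the central one, was at 150 CPM in WT and at 30.7, 2.46 and 22.6, C2 at 19.1, 4.46, 0.819 and 1.88, and C4b at 199, 150, 28.7 and 16.2. Fcnb, Mbl1, Mbl2 and Masp1 had 0 UMIs in the macrophages of each library.

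Transcription factors and cytokine receptors of resident macrophages, 14 genes that all passed the limit, were at −1 or less for 2 in 8-week db/db, 9 in 16-week db/db and 7 in HFD, and at 1 or more for 2, 1 and 2, with median log2 ratios of −0.31, −1.25 and −0.93. Some of them, Csf1r included, also served in the macrophage gate. Maf, a factor of long-lived resident macrophages, was at 1217 CPM in WT and 553, 179 and 170 in the obese libraries. Il4ra, the receptor chain for interleukin-4, was at 70.5, 63.5, 25.0 and 16.3 CPM. Spi1, which encodes PU.1, was at 252, 319, 363 and 344 CPM. Pparg, the lipid-sensing receptor, was at 8.39 CPM in WT and at 30.7, 19.7 and 56.6.

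Likeness of pattern was measured as Pearson's r of log2(CPM + 1) over 45 points, each a cell class or macrophage gate of 1 library. The points share libraries, depths and cells, so r is a description only. The genes most like Cd209f outside the list were C6 (r = 0.87), a terminal complement component, Cd163 (0.83), the chemokine Ccl8 (0.80), Lyve1 (0.79), the flagellin receptor Tlr5 (0.79), Pdgfc (0.78), Tnfrsf17 (0.82) and the histamine receptor Hrh1 (0.79). Cd163 and Lyve1 were used in the gates. Among the members, Cd209g (0.89), Cd209b (0.86), Fcna (0.83) and Cd209d (0.75) were nearer to Cd209f than Clec10a (0.67), Mrc1 (0.66) and Mgl2 (0.57). The genes most like Clec10a were others: Ninj1 (0.85), Cbr2 (0.82), Wfdc17 (0.81), Siglec1 (0.78), Ap2a2 (0.78), Atp6v0d1 (0.77), Cfp (0.76), which encodes the complement factor properdin, and the chemokine Ccl12 (0.76).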

How the data were processed

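The deposited matrices hold counts of UMIs, gene by barcode, which the authors made from 10x Genomics 3′ libraries with Cell Ranger (7.1.0 in the submitters' processing notes and the methods, 6.0.0 in the file headers) on mm10. Only called barcodes were present. Replicates were pooled before capture, so no sample stands for 1 mouse. Barcodes were kept within the study's limits (genes 250 to 6000, UMIs 500 to 30000, mitochondrial share below 15%), and no doublet caller was run. Counts were summed over gated cells and divided by all UMIs of those cells. Intervals were exact Poisson, exact binomial (Clopper-Pearson) or, for ratios, exact conditional binomial at 95%, and cover counting error only. A count of 0 was set at 3 UMIs. Scripts ran in Python 3.11.15 with numpy 2.4.6 and scipy 1.17.1 and were tested on simulated data. The members and lists were chosen with earlier results of these data known. Genes named were the 8 members, those lists, and for Cd209f and Clec10a the 8 genes of highest r with a mean of at least 5 CPM in macrophages. Clec6a and Clec7a were not analysed here. A gene of the macrophage panel is not reported here.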

Additional observations from a re-analysis of the deposited data

Results flagged for a closer look

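Mgl2 in macrophages lay below WT in both db/db libraries and above it in HFD: the log2 ratio was −0.30 in 8-week db/db, −3.20 in 16-week db/db and 0.20 in HFD. All 3 counting intervals left out 0, on opposite sides. The directions depended on the processing. The 8-week db/db ratio was 0.27 with thinning, 0.087 as a mean of each cell's own CPM and 0.75 over all kept cells, and the HFD ratio was −0.65 in cells free of any UMI of the other panels and 0.93 with no mitochondrial limit. With 1 library per group the difference between the libraries was not tested.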

How the results depend on the processing

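No paired analysis was possible because each group had 1 library, and no replicate could be left out. Of the 24 ratios in macrophages, those of Cd209f, Cd209g and Fcna stayed below 0 under all 7 alternatives. In 8-week db/db they rose to as high as −0.39, −1.09 and −0.64 in turn. Also below 0 under all 7 were Cd209b and Cd209d in 16-week db/db and HFD, Mrc1 and Mgl2 in 16-week db/db, and Clec10a in HFD. With cells free of any UMI of the other panels, 8 WT, 157 8-week db/db, 997 16-week db/db and 29 HFD macrophages were left: the members at a log2 ratio of −1 or less were then 1 in 8-week db/db, 5 in 16-week db/db and 1 in all 3 libraries, and ratios turned sign for 8-week db/db at Cd209b (2.01), Cd209d (0.91), Mrc1 (0.51) and Clec10a (0.40) and for HFD at Mrc1 (0.29) and Mgl2 (−0.65). Over all kept cells the counts were 2 in 8-week db/db and 2 in all 3, with turned signs for 8-week db/db at Cd209d (0.37), Mrc1 (0.78), Clec10a (0.33) and Mgl2 (0.75), for 16-week db/db at Clec10a (0.44) and for HFD at Mrc1 (0.39). In 8-week db/db, thinning turned Mrc1 (0.30) and Mgl2 (0.27), as did a mean of each cell's own CPM (0.14 and 0.087). No other alternative turned the sign of a ratio in macrophages. With no mitochondrial limit, which left 3449 HFD macrophages, the HFD ratios of Cd209b, Cd209d, Cd209f, Cd209g and Mgl2 were −5.83, −5.36, −5.20, −5.33 and 0.93. Within the Lyve1/Folr2/Cd163 gate, the HFD ratio ranged over 3 alternatives from −1.47 to −0.55 for Cd209f, −3.84 to −1.35 for Cd209g, −2.69 to −1.47 for Cd209b, −3.79 to −2.86 for Cd209d and −3.07 to −2.08 for Fcna. The share of macrophages in the Lyve1/Folr2/Cd163 gate became 62.4%, 38.6%, 5.57% and 1.45% with 4 UMIs as its limit, and 59.9% in WT and 12.2% in 16-week db/db with thinned cells. The causes were not tested. Macrophages with a Lyve1 UMI and leaving out each obese library were chosen after seeing the data.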

Other observations

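Outside macrophages, Mgl2 was also read in cells gated by the dendritic panel. It was at 132 CPM in WT (16 cells), 144 in 8-week db/db (45 cells) and 463 in HFD (60 cells). It had 0 UMIs in 14 cells of 16-week db/db (upper limit 61.1 CPM). The dendritic gate held 142 of the 1421 Mgl2 UMIs of the HFD library. Cd209d was there at 92.9 CPM in WT, 94.0 in 8-week db/db and 13.0 in HFD. In the monocyte gate of HFD, Cd209d was at 50.0 CPM (26 UMIs in 117 cells), against 2.51 CPM in the macrophages of that library, and Cd209f had 0 UMIs. In 8-week db/db monocytes Cd209d was at 40.2 CPM (11 UMIs in 64 cells), with an interval that overlapped that of HFD. It was at 13.0 CPM in WT monocytes (2 UMIs in 18 cells) and had 0 UMIs in 55 monocytes of 16-week db/db. The gates are small, and Cd209a, a close relative of these genes, is in the dendritic panel.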
